A study of Homo sapiens with 6 samples.

Results

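The genes described here encode the SGK kinases and the proteins of epithelial sodium uptake that these kinases act on. They were chosen by name, with earlier results of these data known. They are the kinases SGK1, SGK2 and SGK3, the ubiquitin ligases NEDD4 and NEDD4L, the epithelial sodium channel (ENaC) subunits SCNN1A, SCNN1B and SCNN1G, and the sodium pump chain ATP1B1. Every probe set that the array annotation assigns to one of these genes alone was taken, which gave 18 of the 54613 probe sets tested and covered 8 of the 9 genes, of 19775 genes measured in all. The 3 probe sets that name SGK3 also name the read-through gene C8orf44-SGK3, so no value is given for SGK3. RNA came from the line IKPRAB-36, Ishikawa cells (from an endometrial cancer) that stably carry introduced copies of both progesterone receptor forms, PRA and PRB. The MPA group (3 arrays) was cultured for 48 h with 1 nM medroxyprogesterone acetate (MPA), a synthetic progestin that can also bind the glucocorticoid receptor, and the control group (3 arrays) was cultured for 48 h without it. Both groups were kept in medium with charcoal stripped serum, hygromycin and neomycin. All arrays come from this single line, and its receptors come from introduced genes.

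In salt-absorbing epithelia, aldosterone raises transcription of SGK1, a serine/threonine kinase. SGK1 phosphorylates the ubiquitin ligase NEDD4L, which otherwise binds ENaC at the cell surface and marks it for removal, so that more channel stays in the apical membrane. Sodium that enters through ENaC is carried out on the other side of the cell by the sodium pump, of which ATP1B1 is a beta chain. In the endometrium, SGK1 and ENaC are known for their part in fluid and ion transport of the luminal epithelium around implantation.

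With MPA, SGK1 rose 15.1-fold and the channel subunit SCNN1A rose 2.74-fold in its brightest probe set. NEDD4 had a 2.46-fold higher mean that did not pass the test. NEDD4L, SGK2, SCNN1B, SCNN1G and ATP1B1 had no probe set that passed. Values are RMA signals on the log2 scale as deposited, one per probe set and array, and a probe set passed when its adjusted p from limma, over all probe sets tested, was under 0.05 and its log2 fold change was 0.32 or more in either direction. By this rule 2 of the 18 probe sets were higher and 0 were lower, where 2.03% of all probe sets tested passed in either direction (1.21% higher and 0.813% lower). At an unadjusted p under 0.05, without the fold minimum, there were 5 of the 18, against 10.3% of all probe sets. SAM, the test named in the methods of the study, called 3 of the 18 higher, NEDD4 besides these 2, and 0 lower, against 2.4% of all probe sets higher and 1.59% lower. The MPA and control arrays did not overlap in 7 of the 18 probe sets (5 above and 2 below), against 15.4% of all probe sets. The median log2 fold change was 0.05 over the 18 probe sets and 0.01 over all probe sets. In bulk RNA a lower signal can come from fewer cells that express a gene or from less RNA per cell, and these cannot be told apart.

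**Figure D1:**
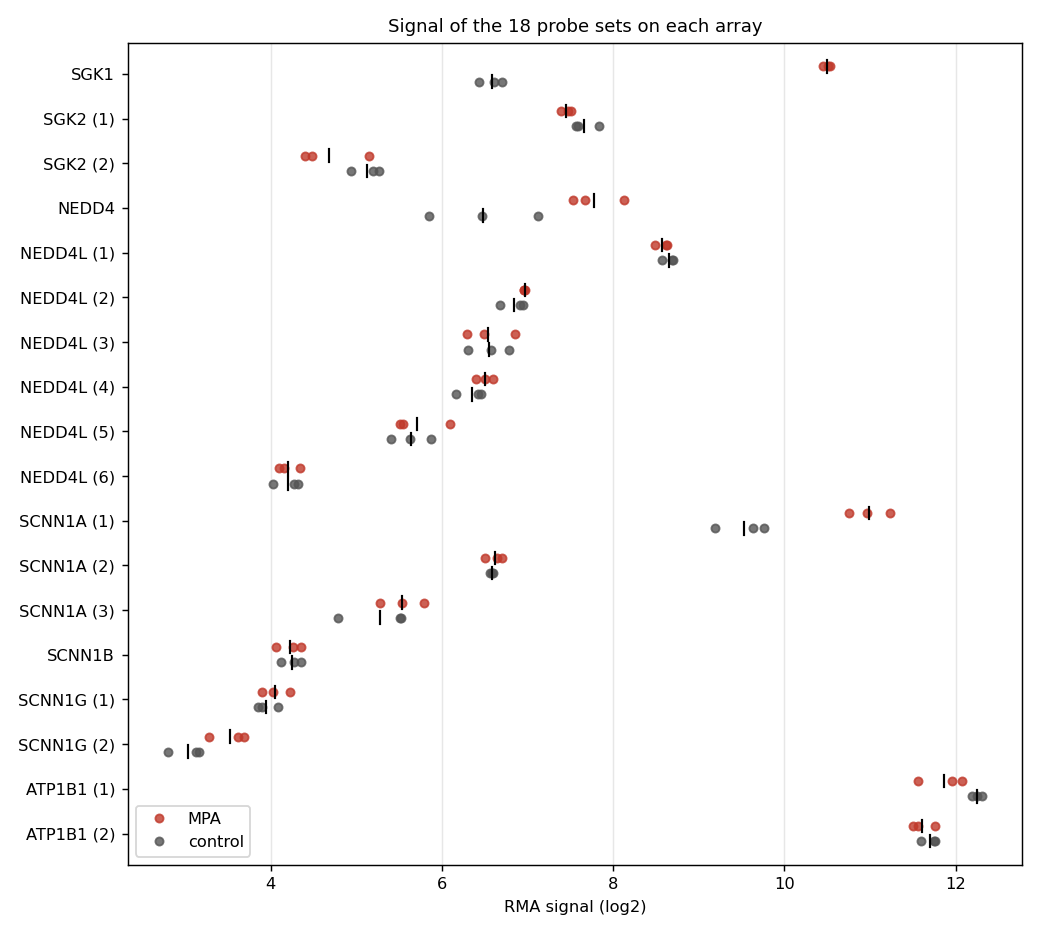
RMA signal on the log2 scale (x axis) of each of the 18 probe sets (y axis) on each MPA array (red, upper row) and each control array (grey, lower row), with black marks at the group means. Probe sets of one gene are numbered from the brightest down. The groups lie far apart for SGK1 (MPA arrays at 10.45 or more, control arrays at 6.70 or less). They also lie far apart for the brightest SCNN1A probe set (MPA arrays at 10.76 or more, control arrays at 9.77 or less).

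The array medians were 5.16 to 5.28, and correlations within a group were 0.987 to 0.997. RMA values are already normalized between arrays, so near-equal medians do not show how alike the samples were. The labels name no batch and do not say whether the 3 arrays of a group came from separate cultures, so the p-values cover no more than the array-to-array spread, and that spread may be technical. MPA 3 differed from the other arrays in its spiked-in poly-A controls (mean 6.19, against 7.50 to 8.23 on the others) and in its 18S ribosomal RNA probe sets (mean 7.06, against 8.09 to 9.44). Without MPA 3, SGK1 still changed by 3.90 and SCNN1A by 1.33 on the log2 scale. The keratin genes KRT8 and KRT18, markers of epithelial cells, had means of 13.35 and 14.05 in MPA arrays and 13.12 and 14.02 in control arrays. Of the other epithelial markers, EPCAM and CDH1 had log2 fold changes of -0.54 and -0.76 (adjusted p of 0.0586 and 0.128 from limma). The uterine marker PAX8 had -0.44 (0.0762), and the stromal markers COL1A1 and COL3A1 had -0.81 and -0.53 (0.168 and 0.0918). All 5 were lower on every MPA array than on every control array, and their part in the results was not tested. None of the measured markers of epithelial cells, uterine epithelium, stroma, leukocytes or endothelium passed the test, and leukocyte markers averaged 3.66 to 4.63 over all arrays. The progesterone receptor gene PGR was at 10.47, 10.56 and 11.08 in MPA arrays and at 10.26, 10.24 and 10.17 in control arrays (adjusted p = 0.294 from limma). Whether its probe set reads the introduced receptors is not stated.

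Sequence upstream of the start sites is shown for SGK1, which changed most, and for NEDD4. NEDD4 was taken because a window of this gene, like one of NEDD4L, holds the 6-base unit of a steroid receptor element. Windows of 250 bases before each annotated start were taken from RefSeq (GRCh38.p14) for the 5 of 9 genes that the promoter table matched. SGK2, SGK3, SCNN1A and SCNN1G had no window. Sequence farther upstream than 250 bases was not searched, so the absence of a match covers these windows alone. The first sequence lies before the most downstream of 3 SGK1 starts, at chr6:134174867-134175116 on the minus strand, and the second before a NEDD4 start, at chr15:55917137-55917386 on the minus strand. Capitals mark the 6-base unit of the element shared by the progesterone, glucocorticoid and mineralocorticoid receptors, AGAACA or its reverse complement TGTTCT.
SGK1: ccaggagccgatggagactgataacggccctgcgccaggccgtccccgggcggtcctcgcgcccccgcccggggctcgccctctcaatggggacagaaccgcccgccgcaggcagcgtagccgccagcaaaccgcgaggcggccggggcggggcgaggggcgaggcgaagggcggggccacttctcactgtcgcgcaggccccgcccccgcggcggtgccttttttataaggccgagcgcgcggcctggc
NEDD4: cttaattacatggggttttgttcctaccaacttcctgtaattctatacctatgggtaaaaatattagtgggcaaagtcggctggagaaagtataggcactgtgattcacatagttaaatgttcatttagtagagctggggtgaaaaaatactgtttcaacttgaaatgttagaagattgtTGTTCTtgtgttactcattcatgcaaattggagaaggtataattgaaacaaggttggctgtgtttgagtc
The SGK1 window had 76.0% G and C and no match to the 6-base unit, and neither had the windows of the other 2 SGK1 starts. The NEDD4 window had 36.0% G and C, and its match began 70 bases before the start. A second NEDD4 start lies so close that its window holds the same site. Of the 13 windows of these 5 genes, 3 held the 6-base unit, the 2 overlapping NEDD4 windows and 1 of the 5 NEDD4L windows, 78 bases before its start, against 12.4% of 34943 windows of all genes. None of the 13 held the full element, AGAACA and TGTTCT spaced by 3 bases, which 0.00286% of all windows held. None held a looser form either, GNACA and TGTNC spaced by 3 bases, which 0.326% of all windows held. All were searched on both strands, and the full element contains the 6-base unit and the looser form. A match to these letters is a description and not a binding site.

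SGK1 was the member that moved most, and the only SGK kinase that passed. Its single probe set had signals of 10.45, 10.51 and 10.53 in MPA arrays and 6.43, 6.70 and 6.61 in control arrays. The MPA values lay within 0.1 of one another and each control value was far below them. The log2 fold change was 3.92 with a standard error of 0.11, a 95% interval of 3.67 to 4.17 and an adjusted p of 2.33e-06 from limma. Ranked by increase over all 19775 genes, each by its brightest probe set, SGK1 stood at place 9. It passed under every alternative run, with log2 fold changes of 3.84 to 3.98 when each array was left out in turn.
The genes whose profiles over the 6 arrays lay closest to that of SGK1, after centring each on its mean, were TIPARP, COL4A3, FKBP5, CXCR4 and F3, with root mean square differences of 0.16 to 0.26 on the log2 scale. These genes were picked by their measured values, and the likeness is a description over 6 arrays.

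SGK2 encodes a related kinase best known from liver, kidney and pancreas. Its brighter probe set was at 7.47, 7.38 and 7.51 in MPA arrays and at 7.83, 7.57 and 7.59 in control arrays. All MPA arrays were lower than the control arrays, by a small margin. The log2 fold change was -0.21 (95% interval -0.47 to 0.05, adjusted p = 0.626 from limma). The second SGK2 probe set had a change of -0.45 (95% interval -0.91 to 0.00258) and overlapping groups, with a mean under the median of every array in both groups. On each array the SGK1 signal minus the SGK2 signal was taken, which differed between MPA and control arrays by 4.13 on the log2 scale. The exact permutation test of this difference gave a two-sided p of 0.1, the smallest that 3 arrays against 3 allow, and 0.214 after Benjamini-Hochberg adjustment over the 15 pairs of probe sets compared in this way.

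The ligases NEDD4 and NEDD4L did not pass the test, and their values differed in size. NEDD4 is the founding member of the family and ubiquitinates many membrane proteins. Its single probe set was at 7.67, 8.13 and 7.53 in MPA arrays and at 5.85, 7.13 and 6.46 in control arrays. Every MPA array was above every control array, but the control arrays were spread over more than 1 log2 unit. The log2 fold change was 1.30 (95% interval 0.62 to 1.98, adjusted p = 0.0858 from limma), place 120 of 19775 genes by increase. Leaving out control 2, the highest control array, gave 1.62 with an adjusted p of 0.0120, and leaving out any other single array gave adjusted p-values of 0.121 to 0.295.
NEDD4L, the ligase through which SGK1 is known to act on ENaC, had 6 probe sets, all between -0.08 and 0.15 in log2 fold change. The brightest was at 8.63, 8.49 and 8.61 in MPA arrays and at 8.69, 8.57 and 8.70 in control arrays, which overlapped. Its change was -0.08 with a 95% interval of -0.31 to 0.16 (adjusted p = 0.912 from limma). Over the 6 probe sets the intervals ran at their widest from -0.41 to 0.50. These intervals of the measured signal do not hold a change as large as the 1.30 of NEDD4. The dimmest NEDD4L probe set averaged 4.20, under the median of every array in both groups, where a change in RNA could be missed. The response of NEDD4L minus that of NEDD4, taken within arrays, was -1.38 (exact permutation test, two-sided p = 0.1, 0.214 after adjustment).

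**Figure D2:**
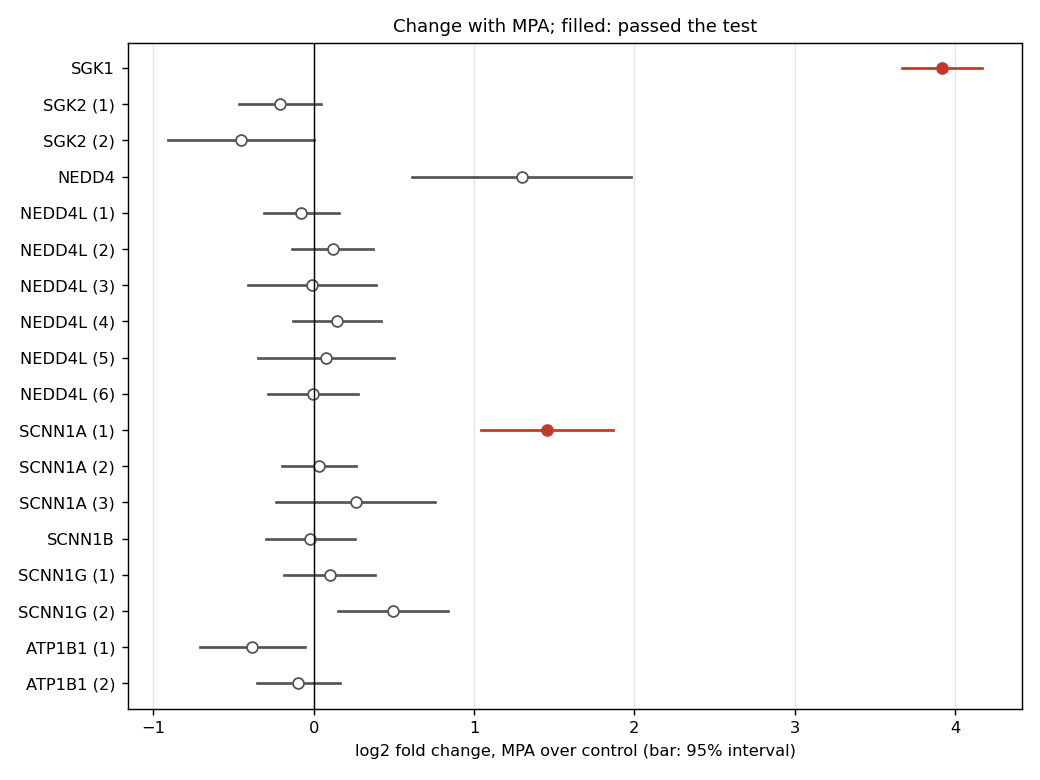
Log2 fold change of MPA over control (x axis, points) with its 95% interval from limma (bars) for each of the 18 probe sets (y axis), 3 arrays a group. Filled red points passed the test: SGK1 at 3.92 and the brightest SCNN1A probe set at 1.46, while NEDD4 at 1.30 has a wide interval and all NEDD4L points lie between -0.08 and 0.15.

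Of the channel subunits, SCNN1A rose in its brightest probe set and SCNN1B and SCNN1G did not pass the test. SCNN1A encodes the alpha chain, which channels need to reach the membrane in working form. Its brightest probe set was at 10.96, 10.76 and 11.23 in MPA arrays and at 9.77, 9.19 and 9.64 in control arrays. Each MPA array was above each control array by about 1 log2 unit or more. The log2 fold change was 1.46 (standard error 0.18, 95% interval 1.04 to 1.87, adjusted p = 0.00452 from limma), place 100 of 19775 genes by increase. It passed whichever array was left out, with adjusted p-values of 0.00666 to 0.0326.
The other SCNN1A probe sets did not show this change. One, whose name ends in x and which may bind related sequences, was at 6.64, 6.51 and 6.70 in MPA arrays and at 6.56, 6.60 and 6.59 in control arrays. The other was at 5.53, 5.28 and 5.78 in MPA arrays and at 5.51, 4.78 and 5.52 in control arrays. Both had overlapping groups, with log2 fold changes of 0.03 (95% interval -0.20 to 0.26) and 0.26 (95% interval -0.24 to 0.76). The response of the brightest probe set exceeded theirs by 1.42 and 1.19 on the log2 scale (exact permutation test, two-sided p = 0.1 each, 0.214 after adjustment over 15 pairs). Averaged over all 3 probe sets, SCNN1A had a log2 fold change of 0.58 and no longer passed (adjusted p = 0.0889). Which transcripts each probe set reads was not tested.
SCNN1B and SCNN1G encode the beta and gamma chains, which join the alpha chain in the channel. SCNN1B was at 4.06, 4.27 and 4.36 in MPA arrays and at 4.27, 4.12 and 4.36 in control arrays, and the groups overlapped (log2 fold change -0.02, 95% interval -0.30 to 0.26). The brighter SCNN1G probe set was at 4.02, 3.90 and 4.22 in MPA arrays and at 4.09, 3.90 and 3.85 in control arrays, also overlapping (0.10, 95% interval -0.18 to 0.38). The second SCNN1G probe set was the dimmest of all 18, and there MPA arrays (3.28 to 3.69) lay above control arrays (2.80 to 3.17), with a change of 0.49 and an adjusted p of 0.222 from limma. All 3 probe sets lay under the median of every array in both groups, a range in which low expression and background cannot be told apart. A change of SCNN1B or SCNN1G RNA could therefore be missed at these signals.
The profiles closest to that of the brightest SCNN1A probe set were those of ALDOC, P4HA2, SLCO4A1, SLPI and OCA2, with root mean square differences of 0.05 to 0.13 over the 6 arrays.

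ATP1B1, the sodium pump beta chain that brings the pump to the membrane, did not pass in either of its probe sets. The brighter one was at 12.07, 11.96 and 11.56 in MPA arrays and at 12.30, 12.25 and 12.19 in control arrays. The MPA arrays were lower, MPA 3 most of all. The log2 fold change was -0.38 (95% interval -0.71 to -0.05, adjusted p = 0.369 from limma), and -0.23 without MPA 3. The second probe set was at 11.56, 11.50 and 11.76 in MPA arrays and at 11.60, 11.74 and 11.75 in control arrays, with a change of -0.10 (95% interval -0.35 to 0.16).

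Genes around these kinases and channels moved in both directions. Of 97 genes in 11 lists for the pathway, 85 had a probe set of their own, and in the brightest one 10 were higher, 4 were lower and 71 did not pass, where 2.9% of all genes passed (1.74% higher and 1.16% lower). The median log2 fold change was 0.06 over the 85 genes and 0.02 over all genes. The 12 others were not analysed here. The lists were chosen with earlier results of these data known, so their share that passed is a description and not a test.
In the list of steroid receptors and cortisol enzymes, 1 of 5 genes rose and 1 fell. HSD11B2, the enzyme that inactivates cortisol and so shields the mineralocorticoid receptor from it, was at 6.24, 6.43 and 6.57 in MPA arrays and at 5.09, 4.66 and 4.94 in control arrays. It rose (adjusted p = 0.00102 from limma), and the measured signals differed 2.86-fold. The control mean lay under the median of every array, where signal and background cannot be told apart, so the size of the change in RNA is not settled. NR3C2, the mineralocorticoid receptor itself, was at 6.69, 6.60 and 6.50 in MPA arrays and at 7.45, 7.75 and 7.51 in control arrays. It fell by 0.97 on the log2 scale (adjusted p = 0.00418). NR3C1, the glucocorticoid receptor, had means of 8.31 ± 0.35 in MPA arrays and 8.19 ± 0.30 in control arrays (SD, n = 3 arrays each; adjusted p = 0.936 from limma).
Of 3 measured genes listed as corticosteroid-induced channel regulators, 2 rose. TSC22D3, which encodes GILZ, a protein that helps keep ENaC at the cell surface, rose 5.84-fold, and USP2, a deubiquitinating enzyme that can take ubiquitin off ENaC, rose 3.99-fold. Besides the brightest, 1 other of the 3 probe sets of TSC22D3 and 2 others of the 4 of USP2 were also higher. The remaining probe set of each gene did not pass. The MPA and control arrays of both genes did not overlap, with MPA arrays at 10.71 to 11.22 for TSC22D3 and 9.55 to 9.96 for USP2, and control arrays at 8.16 to 8.56 for TSC22D3 and 7.56 to 8.11 for USP2.
Among proteins that SGK kinases phosphorylate, 2 of 8 rose and none fell. NDRG1, whose phosphorylation is used as a readout of SGK1 activity, was at 10.26, 10.06 and 10.53 in MPA arrays and at 7.94, 7.33 and 7.71 in control arrays, a rise of 6.15-fold (adjusted p = 0.000243 from limma). FOXO1, a forkhead transcription factor that stays out of the nucleus when phosphorylated, rose 1.76-fold. Besides the brightest, 1 other of its 3 probe sets was also higher, and the remaining probe set did not pass. Phosphorylation itself was not measured.
No gene passed among the 7 measured upstream kinases of SGK and their partners (PDPK1, MTOR, RICTOR and others), where log2 fold changes ran from -0.22 to 0.12. At an adjusted p under 0.05, limma also called none of the 7 other ligases of the NEDD4 family, and SMURF2 was lowest at -0.58 (adjusted p = 0.333).

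**Figure D3:**
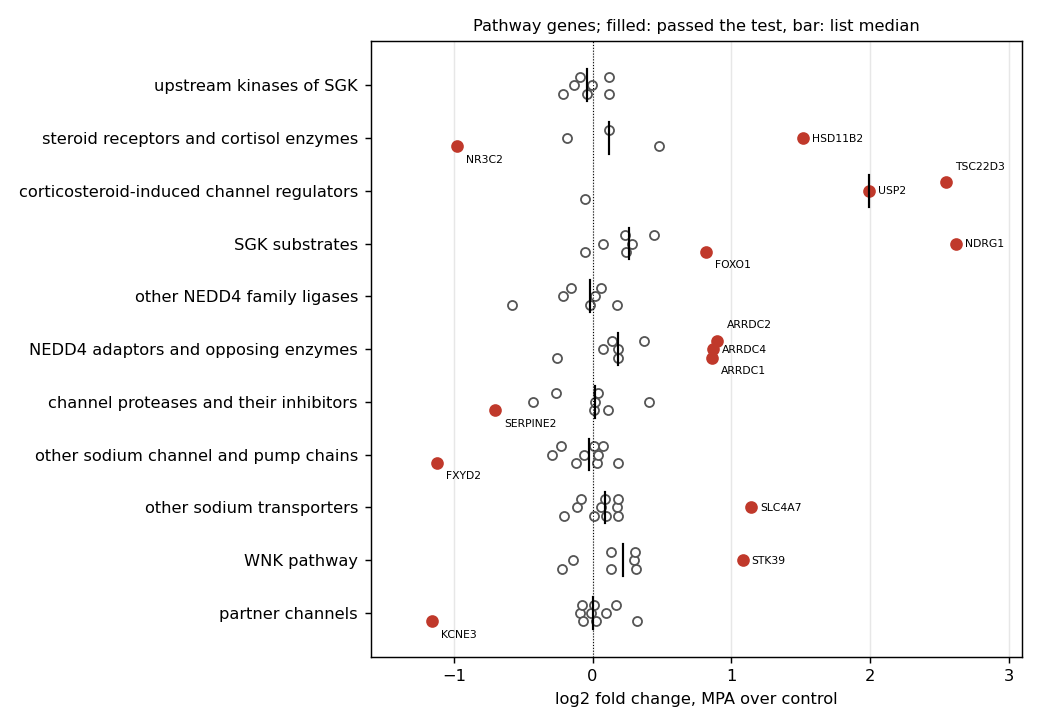
Log2 fold change of MPA over control (x axis) of each measured gene of 11 lists (y axis), by its brightest probe set, with a black bar at the list median. Filled red points with names passed the test, 10 to the right of 0 and 4 to the left, and the 7 upstream kinases all lie between -0.22 and 0.12.

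Of 9 adaptors and opposing enzymes of the NEDD4 ligases, 3 rose and none fell. All 3 were arrestin-like adaptors, proteins that bring NEDD4 ligases to membrane proteins: ARRDC1 (1.82-fold), ARRDC2 (1.87-fold) and ARRDC4 (1.83-fold). ARRDC1 had 2 probe sets, and the dimmer did not pass. The fourth adaptor of this family in the list, ARRDC3, had a log2 fold change of -0.26 with overlapping groups (adjusted p = 0.866 from limma). None of these calls held whichever array was left out. ARRDC1 lost its call without control 3, MPA 1 or MPA 2 (adjusted p of 0.0520 to 0.0817), ARRDC2 without each array except MPA 2 (0.0560 to 0.146), and ARRDC4 without control 1, control 3, MPA 1 or MPA 2 (0.0571 to 0.0896).
The channel-activating protease PRSS8 lay under the array medians at 3.92 ± 0.20 in MPA arrays and 3.80 ± 0.15 in control arrays (SD, n = 3 arrays each). Only SERPINE2, a secreted protease inhibitor, passed among the 8 proteases and inhibitors. It fell by 0.70 in the brighter of its 2 probe sets, and the dimmer did not pass. Among the other channel and pump chains, 1 of 10 passed. FXYD2, the gamma chain that modulates the sodium pump, fell by 1.12 in its brightest probe set, and its other probe set was also lower. The name of that brightest probe set ends in x, so it may bind related sequences. The channel subunit SCNN1D (0.08, adjusted p = 0.951) and the pump chain ATP1B3 (-0.06, adjusted p = 0.935) did not pass.
SLC4A7, a sodium bicarbonate cotransporter, rose 2.21-fold and was the only one of 11 other sodium transporters to pass. Besides the brightest, 1 other of its 4 probe sets was also higher, and the rest did not pass. STK39, the kinase SPAK that passes WNK signals on to sodium and chloride cotransporters, rose 2.12-fold as 1 of 8 WNK pathway genes. KCNE3, a beta subunit of potassium channels, fell by 1.16 and was lower in both of its other probe sets, alone among 10 partner channels. SERPINE2, FXYD2, SLC4A7 and STK39 each lost the call without control 1, control 3, MPA 1 or MPA 2. Their highest adjusted p-values were then 0.142 for SERPINE2, 0.183 for FXYD2, 0.203 for SLC4A7 and 0.150 for STK39. HSD11B2, NR3C2, TSC22D3, USP2, NDRG1, FOXO1 and KCNE3 passed whichever array was left out.

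**Figure D4:**
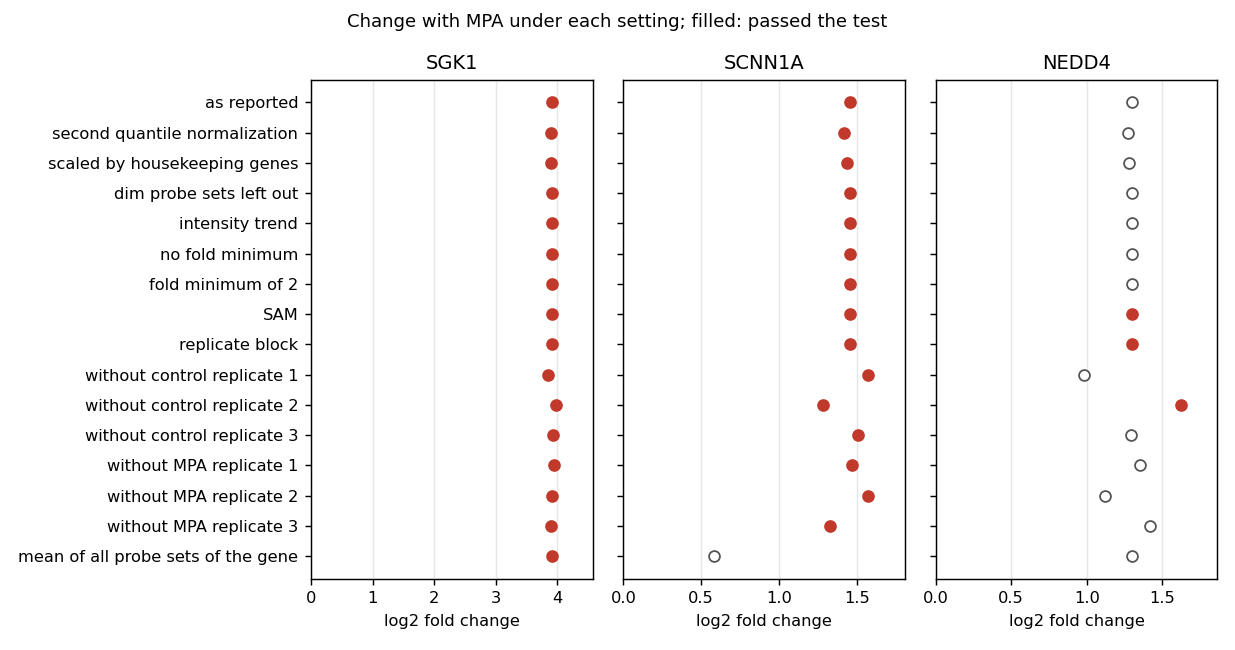
Log2 fold change of MPA over control (x axes) of SGK1, SCNN1A and NEDD4 under the analysis as reported and each alternative (y axis), filled red where the gene passed. SGK1 stays between 3.84 and 3.98, SCNN1A passes except when its probe sets are averaged (0.58), and NEDD4 passes under 3 of the settings.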

How the data were processed

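RNA of 3 MPA-treated and 3 untreated IKPRAB-36 samples was hybridized to Affymetrix U133 Plus arrays. The authors deposited log2 signals made with RMA, which come already corrected for background, normalized and summarized over probes, so none of these steps was repeated. For RMA no software version is named in the sources used here. Of 54675 probe sets, 62 Affymetrix controls were left out. Gene names came from the platform annotation and were brought up to date by Entrez identifier in RefSeq (GRCh38.p14): 41091 had 1 symbol (41037 matched), 1801 had several and 11721 had none. A gene outside the members is given by its brightest probe set with that symbol alone.

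MPA was compared with control by limma 3.58.1 in R 4.3.3, by lmFit followed by eBayes without covariates, two-sided, with Benjamini-Hochberg adjustment over 54613 probe sets. The minimum log2 fold change of 0.32 is the fold cutoff the study names, on the log2 scale. SAM, rewritten here, used a delta of 0.53 and the 20 possible relabelings, with its constant at the 55th percentile of the spread. Both were also run on simulated data with changes added, whose recovery is not reported here. Pairs of probe sets were compared by their difference within arrays. No set test was run. All members are named, and of the pathway lists up to 4 called genes a direction each, plus 9 genes fixed by name that were measured. SMURF2, ARRDC3, PDPK1, MTOR, RICTOR and the markers fall outside this rule and were named after values were seen. The members and lists were chosen with earlier results of these data known. Alternatives were a second quantile normalization, scaling by housekeeping genes (9 of 12 were measured), a filter on dim probe sets, an intensity trend, other fold minimums, SAM, the replicate number as a block, each array left out and all probe sets of a gene averaged. The number of arrays limits the precision.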

Additional observations from a re-analysis of the deposited data

How the results depend on the processing

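As reported, 663 probe sets of the whole array were higher and 444 lower, 357 and 153 with a fold minimum of 2, 1313 and 868 with SAM, and 353 to 725 and 156 to 465 when each array was left out in turn. The 18 probe sets described here gave 2 higher in most settings and 3 with SAM, with the replicate block and without control 2, and none was lower in any setting. The third was NEDD4, at 1.30 with SAM and between 0.98 and 1.62 with arrays left out. SCNN1A fell short of the threshold at 0.58 when its 3 probe sets were averaged. Every other call of a member kept its side of the threshold, and none changed direction while called. Scaling by housekeeping genes moved the median of all probe sets to -0.01.
With the replicate number as a block, 1208 probe sets were higher and 825 lower, NEDD4 passed (1.30, adjusted p = 0.000744 from limma) and SMURF2 was lower (adjusted p = 0.0420). The deviations of same-numbered arrays correlated at -0.02, 0.52 and 0.33, and arrays MPA 1 and MPA 3 correlated best with a control of another number (0.08 and 0.35). The mean of the poly-A controls fell from number 1 to number 3 in both groups. It was 8.23, 7.84 and 7.58 in control arrays and 8.17, 7.50 and 6.19 in MPA arrays. The mean 18S signal fell in the same order. The labels do not say whether same-numbered arrays form pairs, so the block is given only as an alternative. Background correction and summarization could not be varied from these values. Low signal limits what can be seen for SCNN1B, SCNN1G and single probe sets of SGK2 and NEDD4L.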
